A study of Mus musculus with 8 samples.

Results

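The 7 genes described here are 3 transcription factors of the MEF2 family (*Mef2a*, *Mef2c* and *Mef2d*) and the 4 class IIa histone deacetylases (*Hdac4*, *Hdac5*, *Hdac7* and *Hdac9*). They were picked by symbol as a functional family, by a rule that uses no measured value although earlier results of these data were known, out of 45706 genes in the gene table, and all 7 passed the filter on low counts that left 14962 genes for testing. They were measured by bulk RNA-seq of poly-A RNA from hippocampal neurons of wild-type C57/Bl6 mice, cultured from embryonic day 18. The cultures were collected on days 12 to 14 in vitro. Neurons received 1 µM melanin-concentrating hormone (MCH) peptide or the same volume of control vehicle (H2O) for 4 h, with 4 wells per treatment, numbered replicates 1 to 4. The comparison asks which transcripts of these cultures differ after MCH. By the study's methods the wells came from 2 cultures, each giving 2 wells of either treatment, but the culture of each replicate is given neither there nor in the labels. Wells of a culture share their source, so *P* values measure the spread between these wells.

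MEF2 factors bind an A/T-rich element in the promoters and enhancers of many activity-regulated genes and, in hippocampal neurons, are known for limiting the number of excitatory synapses. Class IIa HDACs have little deacetylase activity of their own. They dock on MEF2 and repress its targets by bringing in HDAC3 with its corepressors. Calcium-regulated and salt-inducible kinases phosphorylate them, 14-3-3 proteins then hold them in the cytoplasm, and phosphatases return them to the nucleus. Much of this control lies in phosphorylation and location, which RNA levels do not measure.

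The annotation used here (GENCODE vM21, GRCm38) places *Mef2a* (ENSMUSG00000030557) at chr7:67231163-67372858 on the minus strand, *Mef2c* (ENSMUSG00000005583) at chr13:83504034-83667080 on the plus strand and *Mef2d* (ENSMUSG00000001419) at chr3:88142372-88172086 on the plus strand. *Hdac4* (ENSMUSG00000026313) lies at chr1:91928779-92195699, *Hdac5* (ENSMUSG00000008855) at chr11:102194432-102230166, *Hdac7* (ENSMUSG00000022475) at chr15:97792664-97844502 and *Hdac9* (ENSMUSG00000004698) at chr12:34047580-34917095, all 4 on the minus strand. RefSeq promoter windows of 300 bases (250 before to 50 after a start site, GRCm38.p6) were matched for all 7 genes, 13 windows in all, and searched on both strands for the MEF2 consensus, the cyclic AMP response element TGACGTCA and the AP-1 site TGANTCA. Windows of *Hdac5* and *Mef2a* held the MEF2 consensus, which occurs in 3.19% of the 32851 windows of the table, so that this repressor of MEF2 and 1 of the MEF2 genes carry the letters of a MEF2 site near their own start. In *Hdac5* the match began 20 bases before the start site, and in *Mef2a* it began 2 bases before it and ran across it. The AP-1 letters occurred in 1 window each of *Mef2c*, *Hdac7* and *Hdac9* (7.81% of all windows), and in *Hdac9* they lay 57 bases before the start site. No window of the 7 genes held the cyclic AMP response element (1.79% of all windows). A match describes letters and is no measured binding site. The windows of *Hdac5* and *Mef2a*, and the *Hdac9* window next to the start of the transcript counted here, are shown 5′ to 3′ on the strand of the gene, with capitals for the matched letters.
Hdac5, chr11:102230123-102230422, minus strand: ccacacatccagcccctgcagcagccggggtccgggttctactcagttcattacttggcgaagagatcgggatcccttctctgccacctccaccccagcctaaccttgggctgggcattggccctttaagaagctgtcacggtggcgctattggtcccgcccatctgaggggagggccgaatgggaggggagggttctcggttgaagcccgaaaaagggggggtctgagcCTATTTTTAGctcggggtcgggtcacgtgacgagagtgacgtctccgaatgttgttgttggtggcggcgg
Mef2a, chr7:67372809-67373108, minus strand: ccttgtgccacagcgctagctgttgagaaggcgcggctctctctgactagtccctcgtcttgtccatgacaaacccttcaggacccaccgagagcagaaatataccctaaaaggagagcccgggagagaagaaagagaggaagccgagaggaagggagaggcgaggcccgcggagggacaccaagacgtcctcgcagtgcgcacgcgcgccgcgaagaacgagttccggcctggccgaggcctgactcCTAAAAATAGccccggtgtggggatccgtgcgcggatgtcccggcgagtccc
Hdac9, chr12:34528840-34529139, minus strand: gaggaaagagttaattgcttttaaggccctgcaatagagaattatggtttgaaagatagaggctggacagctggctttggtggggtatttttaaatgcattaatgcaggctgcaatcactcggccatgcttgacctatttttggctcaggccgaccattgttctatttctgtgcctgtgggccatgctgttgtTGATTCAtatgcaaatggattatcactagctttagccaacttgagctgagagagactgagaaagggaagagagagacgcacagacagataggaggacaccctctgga

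All wells were deep. Totals ranged from 26083936 to 31844861 estimated counts, and each of the 7 genes held at least 282 counts in every well. Neuronal markers (8 genes, such as *Tubb3*, *Snap25* and *Map2*) summed to 7137 to 8021 CPM (counts brought to 1 library size by TMM factors), so neuronal RNA was abundant, as the label has it. RNA of other cells was present as well. The wells also split into 2 sides in both treatments, replicates 1 and 2 against replicates 3 and 4, along the first principal component of deviations from the treatment means, which held 59.8% of their variance. Astrocyte markers (8 genes) summed to 1031 to 1134 CPM on the side of replicates 1 and 2 and to 2128 to 2421 CPM on the other. Oligodendrocyte lineage markers summed to 57.3 to 67.9 and 126 to 147 CPM (*Mog* and *Sox10* at 3 counts or under in all wells). Of these, *Olig1* spread from 24.7 to 101 CPM over the vehicle wells, but *Mbp* only from 35.2 to 39.2 CPM. Fibroblast or vessel markers summed to 19.4 to 24.3 and 54.4 to 57.8 CPM. Among them *Dcn* held 14.3 to 43.5 CPM with vehicle, and *Cldn5*, *Cdh5*, *Pecam1* and *Kdr* at most 0.106, 0.26, 0.743 and 3.57 CPM. Neuronal and inhibitory neuron sums were higher in replicates 1 and 2 (7715 to 8021 against 7137 to 7264 CPM, and 2658 to 2906 against 2160 to 2423 CPM). Microglial markers summed to 5.47 to 7.4 CPM in replicates 1 and 2 and to 8.95 to 11.4 CPM in replicates 3 and 4, with *Tmem119* at 3 counts or under in all wells. The part of these cells in the differences between sides was not tested, and in bulk RNA fewer cells of a type and less RNA per cell cannot be told apart. A batch block below is the side entered as a term in the fit. As the sides come from the counts themselves, this fit uses them more than once. A replicate block enters the replicate number instead.

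Per length of transcript, *Hdac5* was the most abundant of the 7 genes and *Hdac7*, best known from vessels and lymphocytes, the least. Summed over transcripts, *Hdac5* reached 169 ± 12 TPM (transcript abundance corrected for length, mean ± SD, n = 4) in the vehicle wells, *Mef2d* 84.6 ± 5.93, *Mef2c* 60.3 ± 3.09, *Mef2a* 53.7 ± 2.43, *Hdac9* 51.2 ± 5.09, *Hdac4* 35.1 ± 1.8 and *Hdac7* 8.01 ± 0.836. Neighbours in this order did not overlap between wells, except *Mef2c* with *Mef2a* (56 to 63.2 against 51.3 to 56.4 TPM) and *Mef2a* with *Hdac9* (46 to 55.9 TPM). *Mef2c* still lay above *Mef2a* in 4 of 4 vehicle wells, whereas *Mef2a* lay above *Hdac9* in 2 of 4. The level of *Hdac9* rests on 1 of its 10 annotated transcripts, the only one counted, so its place depends on which transcripts were quantified. The order of the means was the same in the MCH wells. *Mef2b*, the remaining gene of the family, stood far lower at 2.06 ± 0.664 TPM with vehicle and 1.66 ± 0.433 TPM with MCH.

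**Figure D1:**
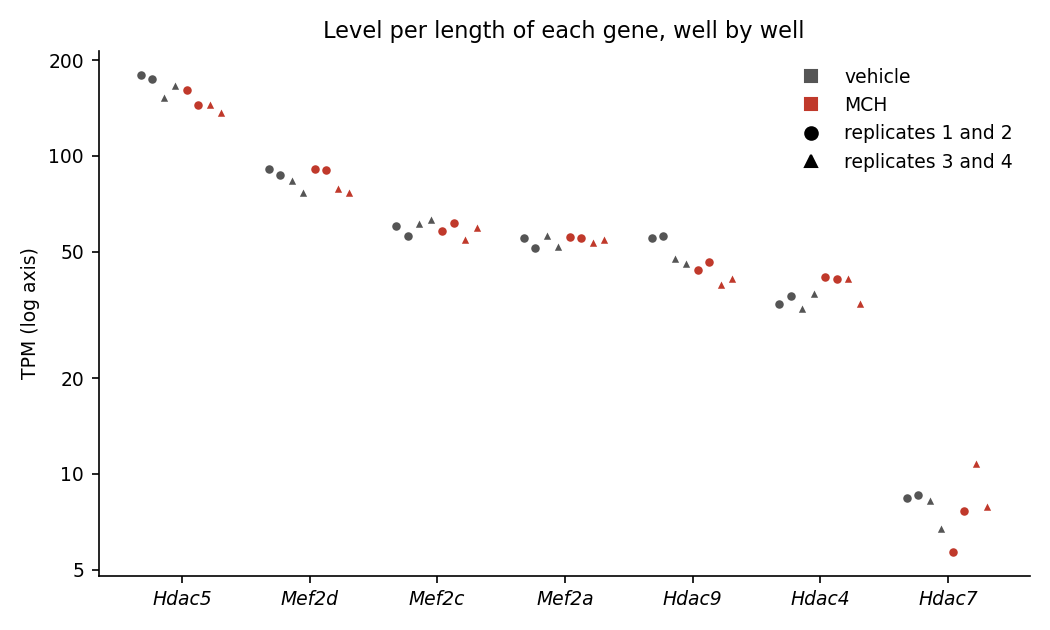
Level per length (TPM, log axis) of the 7 genes in each well, ordered by the mean of the vehicle wells. Grey symbols are vehicle wells, red symbols MCH wells, circles replicates 1 and 2, and triangles replicates 3 and 4. *Hdac5* lies between 153 and 180 TPM with vehicle and *Hdac7* between 6.76 and 8.56 TPM.

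With MCH, the means of *Hdac5* and *Hdac9* differed from vehicle by −14.5% and −18% and that of *Hdac4* by 15.6%, while the 3 MEF2 genes differed by −7.21% (*Mef2c*), −2.48% (*Mef2d*) and 2.53% (*Mef2a*). Without a block, edgeR called none of the 7 genes, against 0.207% of all tested genes called lower and 0.0267% called higher, and 4 of the 7 had an unadjusted *P* value under 0.05, as did 8.5% of all tested genes. limma voom also called none (0.187% lower and 0.0201% higher of all genes). With DESeq2, *Hdac5* passed, against 0.642% of all genes lower and 0.501% higher. The replicate block called *Hdac5* and *Hdac9* lower, against 2.25% of all genes lower and 1.73% higher. The batch block called the same pair lower and *Hdac4* higher, against 2.61% lower and 1.85% higher of all genes. All MCH wells lay beyond all vehicle wells for *Hdac5* (lower) and *Hdac4* (higher), against 2.96% and 3.07% of all tested genes. The median log2 fold change of the 7 genes was −0.036, beside −0.0027 over all tested genes.

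**Figure D2:**
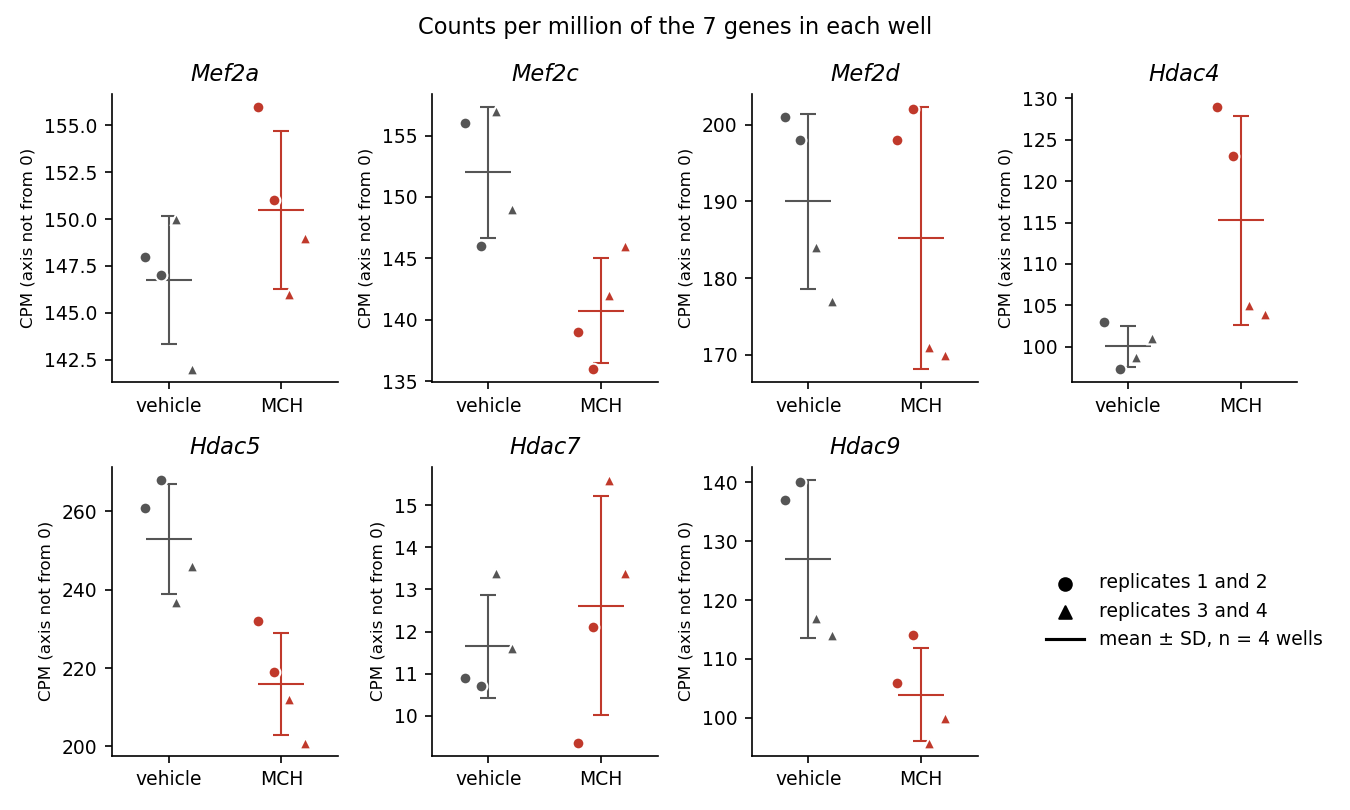
CPM of each gene in the 4 vehicle wells (grey) and the 4 MCH wells (red), with mean ± SD, each panel on its own axis that does not start at 0. Circles are replicates 1 and 2 and triangles replicates 3 and 4. The MCH wells of *Hdac5* (201 to 232 CPM) lie below all vehicle wells (237 to 268 CPM), and *Hdac4* with MCH is higher in the circles than in the triangles.

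Among *Mef2a*, *Mef2c* and *Mef2d*, *Mef2c* showed the lowest value with MCH relative to vehicle. This gene drives cortical and hippocampal neuron development and is linked to intellectual disability when 1 copy is lost. The vehicle wells held 156, 146, 157 and 149 CPM in replicates 1 to 4 and the MCH wells 139, 136, 142 and 146 CPM. The treatments touched at 146 CPM (vehicle replicate 2 and MCH replicate 4), while within each side both MCH wells lay below both vehicle wells. Means were 152 ± 5.3 and 141 ± 4.02 CPM (n = 4), a log2 fold change of −0.11 (SE 0.038, 95% interval −0.19 to −0.022). It did not pass in edgeR without a block (adjusted *P* = 0.456), with the replicate block (0.0724) or with the batch block (0.0554). With a length offset it was −0.062 (95% interval −0.18 to 0.057) in edgeR and −0.066 in DESeq2.

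*Mef2a*, broadly expressed and first known from muscle, held 148, 147, 150 and 142 CPM with vehicle and 156, 151, 146 and 149 CPM with MCH. The ranges overlapped and the log2 fold change of 0.036 had a 95% interval of −0.042 to 0.11 (adjusted *P* = 0.878 in edgeR), so the fit leaves room for changes within those bounds. *Mef2d*, the MEF2 gene of highest level per length here and one known for roles in neuronal survival, held 201, 198, 184 and 177 CPM with vehicle and 198, 202, 171 and 170 CPM with MCH. Its wells sorted by side rather than by treatment, since replicates 1 and 2 exceeded replicates 3 and 4 by 0.14 (vehicle) and 0.23 (MCH) on the log2 scale. The log2 fold change with MCH was −0.036 (95% interval −0.19 to 0.12, adjusted *P* = 0.986), and −0.039 with the batch block (−0.099 to 0.021, adjusted *P* = 0.514). Leaving out MCH replicate 3 or 4 turned its sign to 0.0081 or 0.01. *Mef2b* was at 0.854 to 1.88 CPM with vehicle and 0.772 to 1.28 CPM with MCH (log2 fold change −0.33, SE 0.30, adjusted *P* = 0.854 in edgeR), too few reads to set a narrow bound.

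*Hdac5*, a repressor that leaves the nucleus upon calcium signals and is described in reward and memory circuits, held 261, 268, 237 and 246 CPM with vehicle. The MCH wells held 232, 219, 212 and 201 CPM, each below all vehicle wells. The means were 253 ± 14.3 and 216 ± 12.9 CPM (n = 4). The log2 fold change was −0.23 (SE 0.055, 95% interval −0.35 to −0.10). Its adjusted *P* value was 0.216 without a block, 0.000339 with the replicate block and 7.53e-05 with the batch block in edgeR, and 0.0231 in DESeq2 without a block, where a length offset ended the call (0.196). The difference was −0.23 among replicates 1 and 2 and −0.22 among replicates 3 and 4, and with the batch block the call held when any of the 8 wells was left out (adjusted *P* from 3.97e-05 to 0.00242). On the TPM scale, which allows for length, the wells did overlap (153 to 180 with vehicle against 137 to 161 with MCH).

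For *Hdac9*, all reads were counted on a short form. The transcript tables used here hold 1 of the 10 transcripts that vM21 gives for the gene, Hdac9-201 (12 exons, 1764 coding bases, chr12:34371497-34528874), whose length fits the described brain and heart form that keeps the MEF2-binding part and lacks the deacetylase domain. The other forms, 5 of which have 22 or more exons, were not analysed here, and reads from exons that they share with Hdac9-201 may be among its counts. The vehicle wells held 137, 140, 117 and 114 CPM and the MCH wells 106, 114, 95.8 and 100 CPM. The highest MCH well and the lowest vehicle well both stood at 114 CPM, but they belong to different sides, and within each side both MCH wells lay below both vehicle wells. Means were 127 ± 13.6 and 104 ± 7.81 CPM (n = 4), a log2 fold change of −0.29 (SE 0.081, 95% interval −0.47 to −0.10). In edgeR the adjusted *P* value was 0.317 without a block, 8.23e-05 with the replicate block and 3.34e-05 with the batch block, whose SE was 0.034. Replicates 1 and 2 exceeded replicates 3 and 4 by 0.27 (vehicle) and 0.17 (MCH) on the log2 scale. The difference with MCH was −0.33 and −0.23 on the respective sides. Taken by replicate number, which is not known to pair single wells, the 4 differences were −0.36, −0.30, −0.28 and −0.18. Leaving out any 1 well with the batch block kept the call (adjusted *P* from 7.28e-05 to 0.000761).

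Inhibitory neuron markers overlapped between the treatments in their sum, and none of the 8 was called without a block or in DESeq2. The sum ranged from 2200 to 2906 CPM with vehicle and from 2160 to 2706 CPM with MCH, and 7 of the 8 had a negative log2 fold change (median −0.11). Both blocks called 2 of the 8 lower, *Gad1* (−0.097 with the batch block, adjusted *P* = 0.0267) and *Vip* (−0.23, adjusted *P* = 0.0225). Of all tested genes, the replicate block called 2.25% lower and the batch block 2.61%. None of the 8 neuronal markers was called in any of these edgeR fits. Among astrocyte markers the replicate block called *Slc1a2*, a glutamate transporter, higher (0.15, adjusted *P* = 0.0353). The part of these cells in the values of *Hdac5* and *Hdac9* was not tested.

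*Hdac4*, which represses synaptic genes when it is held in the nucleus, was higher in every MCH well. Vehicle wells held 103, 97.3, 98.8 and 101 CPM, and MCH wells 129, 123, 105 and 104 CPM. No wells overlapped, but MCH replicates 3 and 4 lay just above the vehicle wells while replicates 1 and 2 lay well above them. The means of 99.9 ± 2.39 and 116 ± 12.7 CPM (n = 4) gave a log2 fold change of 0.21 (SE 0.071, 95% interval 0.051 to 0.37). The adjusted *P* value was 0.436 without a block, 0.0565 with the replicate block and 0.0269 with the batch block in edgeR. The difference was 0.34 on the log2 scale among replicates 1 and 2 and 0.07 among replicates 3 and 4, and whether the sides differ in it was not tested. With the batch block, the call was lost without vehicle replicate 1 (adjusted *P* = 0.118), vehicle replicate 2 (0.0827) or MCH replicate 2 (0.124). TPM overlapped between the treatments (33.2 to 37 with vehicle against 34.4 to 41.7 with MCH).

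*Hdac7* held 10.9, 10.7, 13.4 and 11.6 CPM with vehicle and 9.36, 12.1, 15.6 and 13.4 CPM with MCH, so the MCH wells spread on both sides of the vehicle wells. The log2 fold change of 0.12 had a 95% interval of −0.21 to 0.45 (adjusted *P* = 0.928 in edgeR), wider than for the other 6 genes, and the value was 0.0064 without MCH replicate 3 and 0.24 without MCH replicate 1. Replicates 3 and 4 exceeded replicates 1 and 2 in both treatments (side A minus side B, where A is replicates 1 and 2, was −0.20 with vehicle and −0.44 with MCH). The sums of astrocyte, oligodendrocyte lineage, microglial and fibroblast or vessel markers had the same direction, but genes of vessel cells and microglia held few reads. A link of *Hdac7* to any of these cells was not tested. Once counts were adjusted for transcript length its sign turned (−0.017).

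**Figure D3:**
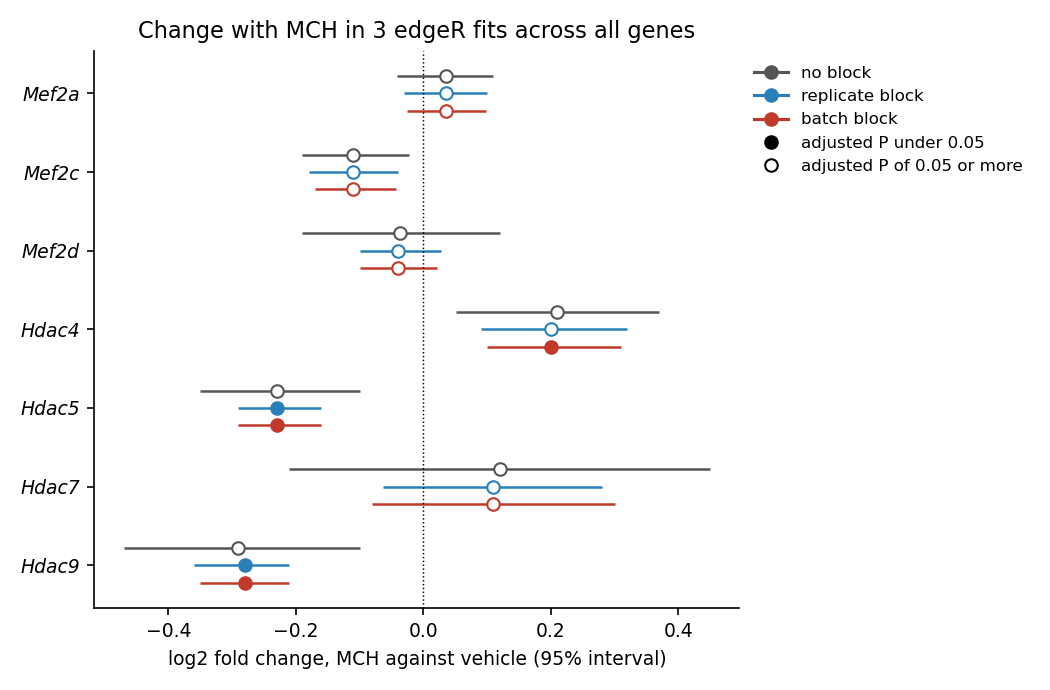
Log2 fold change of each gene with MCH against vehicle and its 95% interval in 3 edgeR fits across all genes, without a block (grey), with the replicate block (blue) and with the batch block (red). Filled points have an adjusted *P* value under 0.05. *Hdac5* and *Hdac9* lie at −0.23 and −0.28 with either block and are filled there, and *Hdac4* at 0.20 is filled with the batch block.

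Transcripts of these genes were uneven in number. The tables held 89, of which 32 were tested, and 18 carried at least 5% of the reads of their gene on average. The fit called 0 of them without a block (0% of all 33527 tested transcripts), 0 with the replicate block (0%) and 0 with the batch block (0.0179% of all), and 2 of the 32 had an unadjusted *P* value under 0.05 without a block, beside 4.4% of all. These were Hdac9-201, the whole of the *Hdac9* signal (log2 fold change −0.29, SE 0.085, adjusted *P* = 0.969), and Hdac4-208, a processed transcript of 23 exons with no annotated coding bases. Hdac4-208 held 161, 213, 297 and 185 estimated counts with vehicle and 438, 436, 308 and 351 with MCH (log2 fold change 0.77, SE 0.20, adjusted *P* = 0.857 in edgeR). Its share of *Hdac4* reads was 6.05% to 10.6% with vehicle and 10.2% to 13.2% with MCH, and the main coding form, Hdac4-202, held 86.1% to 90.2% and 83.9% to 86.4%. The coding form alone had a log2 fold change of 0.16 (SE 0.079, adjusted *P* = 1), below that of the gene.

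The MEF2 genes each had 1 leading coding transcript. Mef2a-208 held 89.5% of *Mef2a* reads, Mef2c-212 78% of *Mef2c* reads with Mef2c-223 at 12.5%, and Mef2d-201 72.4% of *Mef2d* reads with Mef2d-204 at 17.2% and Mef2d-203 at 10.2%. For *Mef2c*, both forms had negative log2 fold changes (−0.10, SE 0.048, and −0.17, SE 0.10, adjusted *P* = 1 for each in edgeR). *Mef2a* also had Mef2a-203 at 6.63%, with a log2 fold change of −0.53 against 0.065 for Mef2a-208 (SE 0.37 and 0.037). The split of *Hdac5* was less firm, because Hdac5-204 took 39.6% to 55.7% of the reads of a well and Hdac5-202 6.22% to 21.8%, while Hdac5-205, annotated for nonsense-mediated decay, took 22.2% to 33.1%. All of these *Hdac5* forms were lower with MCH on average (−0.22, −0.30 and −0.20 in that order, SE 0.16, 0.42 and 0.11). Reads of *Hdac7* could not be shared out reliably, since Hdac7-204 ranged from 0% to 59.9% and Hdac7-202 from 0% to 51.4% of its reads across wells. The others at 5% or more were Hdac7-211 (13.1%), Hdac7-207 (8.34%) and Hdac7-205 (5.87%).

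Of the kinases that phosphorylate class IIa HDACs, the salt-inducible kinases were lower with MCH in their means. The study itself names *Sik1* as lower with this treatment, so its call here is no independent evidence about the pathway. Of 16 tested (CaM kinases, salt-inducible kinases, protein kinases D and MARK kinases), edgeR without a block called *Sik1* lower (0.207% of all tested genes), the replicate block called 3 lower (2.25% of all) and the batch block 5 lower (2.61% of all), with none higher in any of these fits. *Sik1*, itself an activity-induced gene, held 41.4, 39.8, 34.8 and 39.5 CPM with vehicle and 26.4, 23.8, 26.1 and 24.4 CPM with MCH. The wells were well apart, and the log2 fold change was −0.63 (SE 0.063, adjusted *P* = 0.0078 without a block). Without vehicle replicate 4 it no longer passed (adjusted *P* = 0.05). *Sik3* was at 181 ± 7.86 CPM in vehicle wells and 158 ± 12.6 CPM in MCH wells (n = 4) and passed with both blocks (−0.19, adjusted *P* = 0.0117 with the batch block, but 0.348 without a block). *Sik2*, at 44 ± 1.26 and 39.1 ± 4.1 CPM (n = 4), passed with the batch block alone among the edgeR fits shown (−0.17, adjusted *P* = 0.0447). *Camk1g*, a neuronal CaM kinase I, was at 87.9 ± 3.15 and 75.8 ± 4.52 CPM (n = 4) with no overlap of wells, and passed with both blocks and in DESeq2 (−0.21, adjusted *P* = 0.0255 in DESeq2, 0.184 in edgeR without a block). *Mark3* passed with the batch block only (−0.14, adjusted *P* = 0.0468). Of the 16 kinases, 10 had a negative and 6 a positive log2 fold change, with a median of −0.021 beside −0.0027 over all tested genes, and 6 had an unadjusted *P* value under 0.05 (8.5% of all). *Camk2a*, the abundant CaM kinase II of excitatory synapses, was at 1300 CPM with vehicle and 1372 CPM with MCH (log2 fold change 0.078, adjusted *P* = 0.918 in edgeR). *Camk4*, a nuclear CaM kinase, was at 216 and 232 CPM (0.10, adjusted *P* = 0.849).

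The other partners of the pathway gave no calls, like most genes in these fits. Of all tested genes, edgeR called 0.207% lower and 0.0267% higher without a block, and 2.61% and 1.85% with the batch block. At such shares, short lists without a call say little about the partners. Of the 7 tested genes of 14-3-3 proteins, 0 passed without a block or with either block or in DESeq2, and their log2 fold changes ran from −0.055 to 0.016 (median −0.032). The same held for the 7 subunits of calcineurin and protein phosphatase 2A (−0.084 to 0.059, median −0.03), for the 9 corepressor partners (−0.15 to 0.17, median 0.033) and for the 7 MEF2 coactivators and kinases (−0.038 to 0.18, median 0.056). At an unadjusted *P* value under 0.05 in edgeR without a block, these 4 lists held 0, 0, 2 and 2 genes, beside 8.5% of all tested genes. *Hdac3*, the catalytic subunit that class IIa HDACs depend on, was at 100 CPM with vehicle and 94.4 CPM with MCH (log2 fold change −0.085, adjusted *P* = 0.56 in edgeR). *Ncor1*, a scaffold that holds it, had a log2 fold change of 0.093 (adjusted *P* = 0.689). Of the 7 HDACs of other zinc-dependent classes, including *Hdac3*, none was called either, with a range of −0.085 to 0.20, a median of −0.027 and 1 gene at an unadjusted *P* value under 0.05. Calls among the HDACs in these fits were of *Hdac5* and *Hdac9* with both blocks, *Hdac5* in DESeq2, and *Hdac4* with the batch block. Without a block, edgeR called no HDAC of any class. Outside class IIa, the wells of *Hdac2* also did not overlap, lower with MCH (means 70.3 CPM with vehicle and 68.4 CPM with MCH, against 2.96% of all tested genes). A difference between the classes was not tested.

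Among 13 genes described as MEF2 targets, the calls of edgeR without a block were both lower and of genes tied to synapses. Several of the 13 are genes that the study names for this treatment, so the list is no independent evidence of a direction. edgeR without a block called *Arc* and *Homer1* lower (0.207% of all tested genes). Both blocks added *Nr4a1* and *Bdnf* (2.25% of all lower with the replicate block, 2.61% with the batch block). DESeq2 without a block called *Arc*, *Homer1* and *Nr4a1* lower (0.642% of all), with adjusted *P* = 1.08e-06 for *Nr4a1*. *Nr4a1*, an orphan nuclear receptor and a class IIa HDAC target in several tissues, was at 93.9 ± 20.8 CPM in vehicle wells and 45.4 ± 9.1 CPM in MCH wells (n = 4, log2 fold change −1.05, SE 0.19, adjusted *P* = 0.126 without a block and 2.05e-07 with the batch block). *Arc*, which drives removal of AMPA receptors from synapses, was at 56.2 ± 1.86 and 37.3 ± 2.45 CPM (n = 4, −0.59, SE 0.053, adjusted *P* = 0.00492 without a block). *Homer1*, a scaffold of metabotropic glutamate receptors with an activity-induced short form, was at 118 ± 5.77 and 96.6 ± 4.14 CPM (n = 4, −0.30, SE 0.047). Its adjusted *P* value of 0.0488 passed narrowly, and without any 1 well it lay between 0.0539 and 0.236. *Bdnf*, a neurotrophin, was at 336 ± 47.4 and 258 ± 33.5 CPM (n = 4, −0.38, adjusted *P* = 0.41 without a block and 1.35e-07 with the batch block). *Jun*, a subunit of AP-1, was called higher with the replicate block only (0.26, adjusted *P* = 0.00115, but 0.115 with the batch block). The remaining targets showed no call and ranged from −0.076 (*Pcdh10*) to 0.26 (*Klf2*, at means of 1.25 and 1.5 CPM), and the median over the 13 was −0.035.

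**Figure D4:**
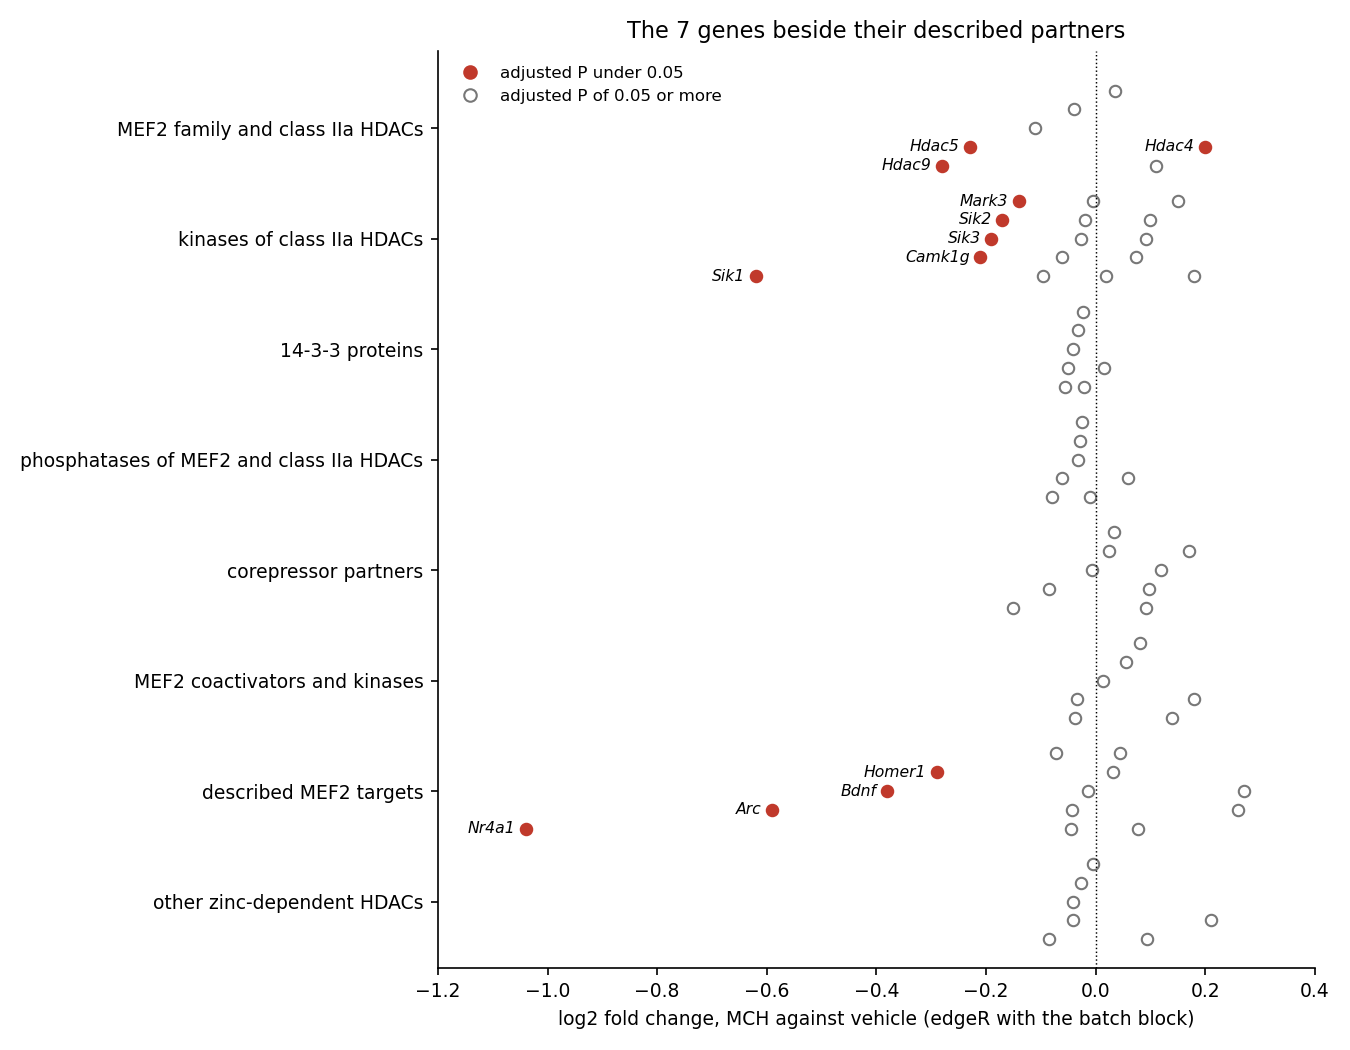
Log2 fold change with MCH against vehicle, in edgeR with the batch block, of the 7 genes and of the genes in each list of partners and targets. Each point is a gene and its height within a row has no meaning. Filled, named points have an adjusted *P* value under 0.05. The filled points outside the 7 genes are 5 kinases, led by *Sik1* at −0.62, and 4 targets, led by *Nr4a1* at −1.04.

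The genes whose profile over the 8 wells lay closest to each of the 7 were found among all tested genes by the root mean square difference of log2 CPM, each gene centred on its own mean. *Hdac5* lay nearest to *Ing2* (0.0245) and *Znhit6* (0.0316), beside its own root mean square deviation of 0.135. *Hdac9* lay nearest to *Lipg* (0.0504) and *Rbms1* (0.0544), with a deviation of its own of 0.182. For *Hdac4* they were *Med12l* (0.0278) and *Rnf165* (0.0314), against 0.142. The nearest of *Mef2a* were *Ubqln2* and *Gigyf2* (0.0127 and 0.0152), of *Mef2c* *Ppp4r3a* and *Socs5* (0.0216 and 0.0242), of *Mef2d* *Pacsin1* and *Pcdh20* (0.0133 and 0.0215), and of *Hdac7* *G2e3* and *Hmg20b* (0.0538 and 0.0769). Each was picked from 14962 genes over the same 8 wells that share sides and treatments, so these are descriptions of profiles. None of the 7 genes was among the 2 nearest of another.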

How the data were processed

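Bulk RNA-seq of 8 wells was analysed. Reads were mapped and quantified by the authors with salmon, run inside nf-core/rnaseq, against GRCm38. The annotation release is not given in the sources used here. They deposited estimated counts, per transcript and summed to genes without normalization (9.13% of values not whole), and TPM per transcript, in which salmon had corrected for transcript length and depth before the authors deposited them. Identifiers were matched to GENCODE vM21 (45143 of 45706 genes and 108214 of 109617 transcripts named). The treatment and replicate number came from the sample labels, which also carry an Alzheimer's disease tag although the genotype is wild type. The dose and time came from the labels and the study's methods.

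After rounding of the estimated counts, edgeR 4.0.16 was run under R 4.3.3 (TMM, filterByExpr by treatment with count minimum 10 and total minimum 15, robust quasi-likelihood F test, no block), with Benjamini–Hochberg adjustment over all 14962 genes and a threshold of 0.05. The SE is the size of a log2 fold change over the square root of F. Transcripts were tested likewise. Alternatives were the replicate block, the batch block, DESeq2 1.42.0 and voom from limma 3.58.1, DESeq2 size factors, no filter, a length offset, and leaving out each well. The combinations of DESeq2 or left-out wells with the batch block were added after seeing the data. The script was tested on simulated data. A floor of 3 counts was used, and it covers counting error only.

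Replicate numbers are shared by the treatments. On deviations from the treatment means, same-numbered wells correlated at 0.445, 0.492, 0.545 and 0.499, all over 0.1, the rule for entering the number as a block. Other numbers of the same side correlated as highly (0.475 to 0.521). The check therefore recovers the sides and cannot show that the numbers pair single wells. Any pairing by number comes from these values only, and blocked values are given where they change a call.

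Named are the 7 genes, *Mef2b*, list genes called without a block or with either block, the 2 nearest profiles of each of the 7 genes, and their transcripts with at least 5% of reads. Other genes were named after their values were seen. The 7 genes were taken by family membership, and they, the lists and the rules were chosen with earlier results of these data known. No table of proteins was used.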

Additional observations from a re-analysis of the deposited data

Results flagged for a closer look

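Among the groups of 4 wells examined for the 7 genes and the named list genes (34 groups), 2 held a well far from the other 3, and chance gives about 1 in 20 groups. *Mark3*, a MARK kinase of class IIa HDACs, was at 115 CPM in vehicle replicate 3 against 124 to 125 CPM in the other vehicle wells. *Sik3* was at 177 CPM in MCH replicate 1 against 150 to 153 CPM in the other MCH wells, so the MCH wells overlapped the vehicle wells (173 to 192 CPM) through that well.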

How the results depend on the processing

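Over all genes, the counts called lower and higher (31 and 4 without a block) were 337 and 259 with the replicate block, 391 and 277 with the batch block, 96 and 75 with DESeq2, 77 and 61 with DESeq2 and a length offset, and 7 and 0 with the length offset. Leaving out a well gave 4 to 25 lower and 0 to 5 higher, with 5 lower without vehicle replicate 1, 9 without vehicle replicate 2, 4 without vehicle replicate 4, 11, 10 and 7 without MCH replicates 2, 3 and 4, and fewer wells in each of these fits. Of the 7 genes, 2 were called lower with the replicate block, 2 with the batch block and 1 with DESeq2, and 1 higher with the batch block. Leaving out a well without a block called 0 of them.

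*Hdac5* was also called at −0.23 with the replicate block and the batch block, and at −0.22 with DESeq2, DESeq2 with the batch block, and DESeq2 with the length offset and the batch block (−0.24, −0.23, −0.21 or −0.20 with the batch block and a well left out), but not with DESeq2 and the length offset alone (−0.22, adjusted *P* = 0.196). *Hdac9* was called at −0.28 with either block and with DESeq2 and the batch block, with or without the length offset (−0.30, −0.29, −0.28, −0.27, −0.26 or −0.25 with a well left out). Its only transcript had an effective length of 4172 in every well. The length offset thus had no length difference of *Hdac9* to adjust, and a call that held with it says nothing about length. *Hdac4* was called at 0.20 with the batch block and 0.21 with DESeq2 and the batch block (called in 5 of 8 fits with a well left out, at 0.17, 0.23 or 0.24), but not with the length offset added (0.15, adjusted *P* = 0.369). With the length offset and no block, adjusted *P* values rose to 0.578 for *Hdac5*, 0.534 for *Hdac9* and 0.759 for *Hdac4*. The replicate block changed no other call among the 7 genes.

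The sign of *Mef2d* varied when a well was left out (−0.076 to 0.01). *Hdac7* turned to −0.017 with the length offset, −0.021 with DESeq2 and the length offset, and −0.035 with the batch block added. Among transcripts, the sign of Mef2d-204 (−0.086 to 0.024), Hdac5-202 (−0.57 to 0.063), Hdac7-204 (−0.63 to 0.30), Hdac7-202 (−0.86 to 0.39, and 0.18 with the replicate block and 0.06 with the batch block) and Hdac7-211 (−0.20 to 0.53) varied with the well left out. *Homer1* missed the threshold with limma voom (adjusted *P* = 0.0584), DESeq2 size factors (0.0626) and the length offset (0.299). The cause of these differences was not tested. *Mef2b* held 22 to 52 estimated counts per well.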
